A study of Homo sapiens with 16 samples.

Results

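The 10 genes described here encode secreted glycoproteins and 1 proteoglycan of the extracellular matrix: fibronectin (FN1), versican (VCAN), the fibrillins FBN1 and FBN2, the thrombospondins THBS1 and THBS2, the TGFb-induced protein TGFBI, tenascin C (TNC), SPARC and periostin (POSTN). They were chosen by symbol with earlier results of these data known, so counts of members that passed are a description. Each of the 10 symbols was found among the 58219 genes of the deposited table. Their transcripts were counted by poly(A) RNA sequencing in PANC-1, an established cell line of a human pancreatic carcinoma, labelled wild type. Cells were non-transfected or received siRNA against FLASH (gene CASP8AP2), NPAT or SLBP, which are factors of histone gene expression, and each of these 4 kinds of cells was sequenced without TGFb and with TGFb at 100 ng/ml for 48 h. This gave 8 groups of 2 libraries, with which the study asked how the 3 factors act in the transition of epithelial cells to a mesenchymal state (EMT). A non-targeting siRNA is given for no group. The descriptions call the non-transfected cells Mock, without saying whether they saw transfection reagent, and the titles give day 3 where the design text gives 4 days after transfection. Nothing in the labels says that the 2 libraries of a group came from separate cultures, so p-values measure the spread between these libraries, which may be technical.

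As background, these proteins form the fibrillar and pericellular matrix outside the cell. Fibronectin fibrils are pulled out by integrins, fibrillins polymerise into microfibrils that hold latent TGFb, and versican binds hyaluronan. Thrombospondins, tenascin C, SPARC, periostin and TGFBI are matricellular proteins, which tune adhesion more than they bear load, and in pancreatic carcinoma much of this matrix is made by stellate cells of the stroma. TGFb is a textbook inducer of several of the genes, fibronectin and TGFBI among them.

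Library totals lay between 23830139 and 30832503 counts. The targeted transcripts were reduced in each siRNA group, to 20.5% of the non-transfected level without TGFb and 21.0% with TGFb for CASP8AP2, 10.7% and 12.7% for NPAT, and 5.77% and 6.5% for SLBP. The labelled cell type was checked against 6 epithelial markers (KRT7, KRT8, KRT18, KRT19, EPCAM and CDH1), none of which was at 0 in any group. They summed to 725.7 to 1686 CPM per library (CPM is the count scaled to TMM-adjusted library size). In non-transfected cells without TGFb KRT8 (524.2 ± 102 CPM, SD, n = 2) and KRT18 (501 ± 4.87 CPM) were highest. KRT7 (2.92 ± 1.17 CPM) and CDH1 (6.275 ± 1.25 CPM) were lowest there. Marker values that moved with the siRNA groups are given beside those results.

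The upstream sequence of the genes is shown because TGFb-responsive genes are often described by SMAD, AP-1 and GC box motifs near their starts. Windows of 250 bases before the RefSeq start (GRCh38.p14) were found for each of the 10 genes. The part of the window that lies outside the gene's own span in GENCODE release 29 is printed here, 5′ to 3′ on the gene's strand, for 5 genes in which that part is at least 100 bases long, with motif matches in capitals.
FN1, chr2:215436173-215436318, minus strand: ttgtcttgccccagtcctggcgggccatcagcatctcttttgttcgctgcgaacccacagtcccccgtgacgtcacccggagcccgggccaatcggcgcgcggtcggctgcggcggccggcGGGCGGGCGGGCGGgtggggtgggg
THBS1, chr15:39580829-39581078, plus strand: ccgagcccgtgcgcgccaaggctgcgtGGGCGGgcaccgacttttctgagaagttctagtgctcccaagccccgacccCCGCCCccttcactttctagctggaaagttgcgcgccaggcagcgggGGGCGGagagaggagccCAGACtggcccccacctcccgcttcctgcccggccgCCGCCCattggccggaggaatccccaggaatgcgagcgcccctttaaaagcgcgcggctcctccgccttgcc
TGFBI, chr5:136028738-136028894, plus strand: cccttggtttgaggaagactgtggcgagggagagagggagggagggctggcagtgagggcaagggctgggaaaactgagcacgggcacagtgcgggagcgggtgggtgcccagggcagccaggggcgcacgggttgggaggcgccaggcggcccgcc
TNC, chr9:115118258-115118407, minus strand: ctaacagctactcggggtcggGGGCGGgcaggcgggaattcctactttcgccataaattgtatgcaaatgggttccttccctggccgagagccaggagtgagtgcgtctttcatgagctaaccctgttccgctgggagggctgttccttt
POSTN, chr13:37598845-37599018, minus strand: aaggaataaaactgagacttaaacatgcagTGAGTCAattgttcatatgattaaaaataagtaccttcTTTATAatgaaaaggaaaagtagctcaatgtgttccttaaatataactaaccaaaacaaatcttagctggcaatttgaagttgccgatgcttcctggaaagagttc

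The motifs were searched on both strands of the whole windows, and no base of a member fell in more than 1 motif. The SMAD-binding motif, spelled CAGAC, was present in 4 of the 10 windows and in 38.0% of 35116 promoter windows of the same length. The GC box, spelled GGGCGG, was present in 6 of 10 against 42.6%, with 6 matches in FN1. The AP-1 motif TGANTCA was found in POSTN (1 of 10 against 6.57%), the TATA box TATAAA in POSTN and THBS2 (2 of 10 against 10.7%), and the E-box of the Snail and ZEB type, CAGGTG, in 0 of 10 against 17.5%. The POSTN window held 36.4% G and C, where those of FN1, TGFBI and FBN2 held 72.8% to 76.4%. A match is a run of letters and not a measured binding site.

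TGFBI was the most abundant of the 10 transcripts per unit of length in each of the 8 groups. In TPM, the authors' length-scaled unit, it stood at 75.9 ± 3.06 (SD, n = 2) in non-transfected cells without TGFb and at 1584 ± 333 after SLBP siRNA with TGFb. It made up 85.6% and 87.2% of the summed TPM of the 10 genes in the non-transfected libraries, 56.2% and 59.5% after FLASH siRNA, and 48.1% and 55.9% after SLBP siRNA. With TGFb its share lay between 85.5% and 93.8% in the 8 libraries. The next gene in order differed between groups. SPARC followed in non-transfected cells (5.92 ± 1.08 TPM) and after NPAT siRNA (34.0 ± 6.95 TPM). After SLBP siRNA it had the second highest mean (25.6 ± 15.0 TPM), but in replicate 1 THBS1 (16.8 TPM) lay above SPARC (14.9 TPM). THBS1 came next in non-transfected cells with TGFb, at 35.1 ± 3.71 TPM, and after SLBP siRNA with TGFb, at 129 ± 24.5 TPM. After FLASH siRNA with TGFb FN1 (68.5 ± 36.6 TPM) and THBS1 (54.5 ± 8.61 TPM) did not differ beyond their spread. TPM of the low genes depends on the transcript length that the authors' program assigned, which for FN1 was 2905 bases in 1 non-transfected library and 5212 in the other.

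**Figure D1:**
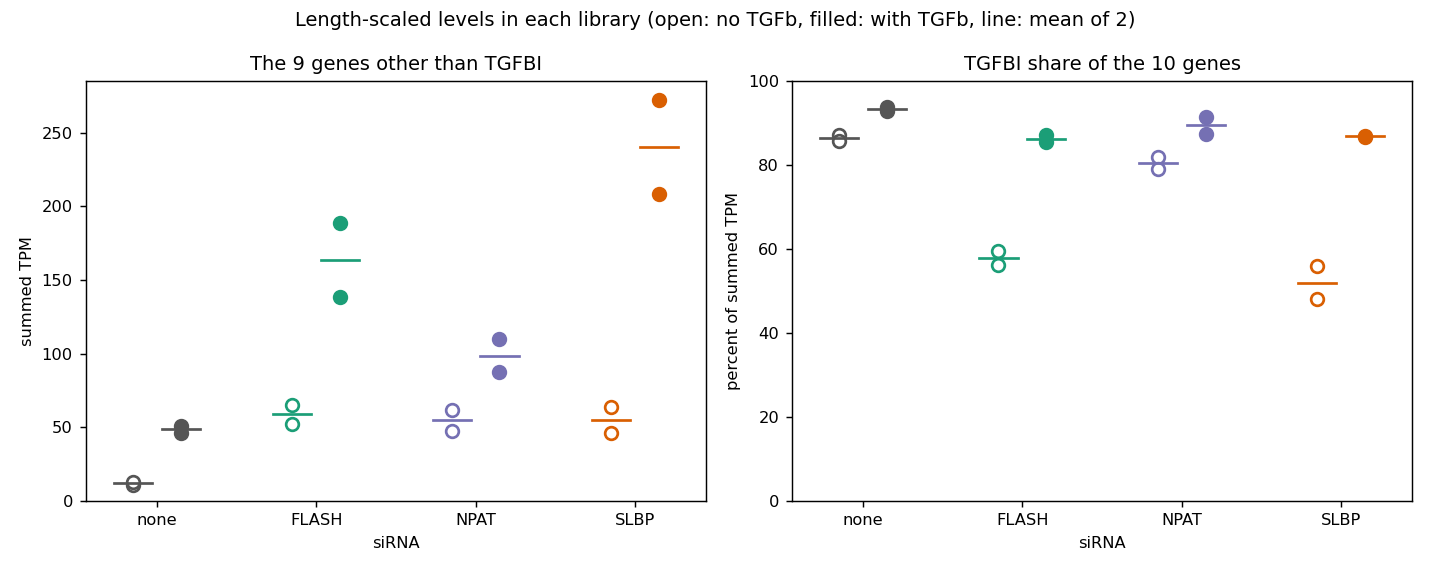
Summed TPM of the 9 genes other than TGFBI (left, linear axis) and TGFBI as a percent of the summed TPM of the 10 genes (right), by siRNA, with 1 point per library, open without and filled with TGFb, and a line at the mean of 2. The 9 genes sum to 10.86 and 13.08 TPM in non-transfected libraries and to 208.5 and 272.0 TPM after SLBP siRNA with TGFb, and the TGFBI share is lowest after SLBP and FLASH siRNA without TGFb.

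From here on levels are CPM, which are comparable for 1 gene across libraries, and differences are fitted log2 fold changes with their standard error (SE). Passing the test means an adjusted p below 0.05 in edgeR over the 17743 genes tested. All 10 members were tested. FBN2, THBS2 and POSTN had 0 to 3 counts in total in each non-transfected group, so they could enter the test only through siRNA groups, in which they are higher. Counts and medians for TGFb and against non-transfected cells are therefore given over the other 7 members first. VCAN, 1 of the 7, had 11 counts in non-transfected cells without TGFb and entered the test through other groups, in which it is higher. Its p-values against that group, and its part in the counts and medians there, are a description. For FBN2, THBS2 and POSTN no single p against non-transfected cells is used. Counts over all 10 members include them, and nothing is read from their part. No fold is given where both groups had 3 counts or fewer.

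**Figure D2:**
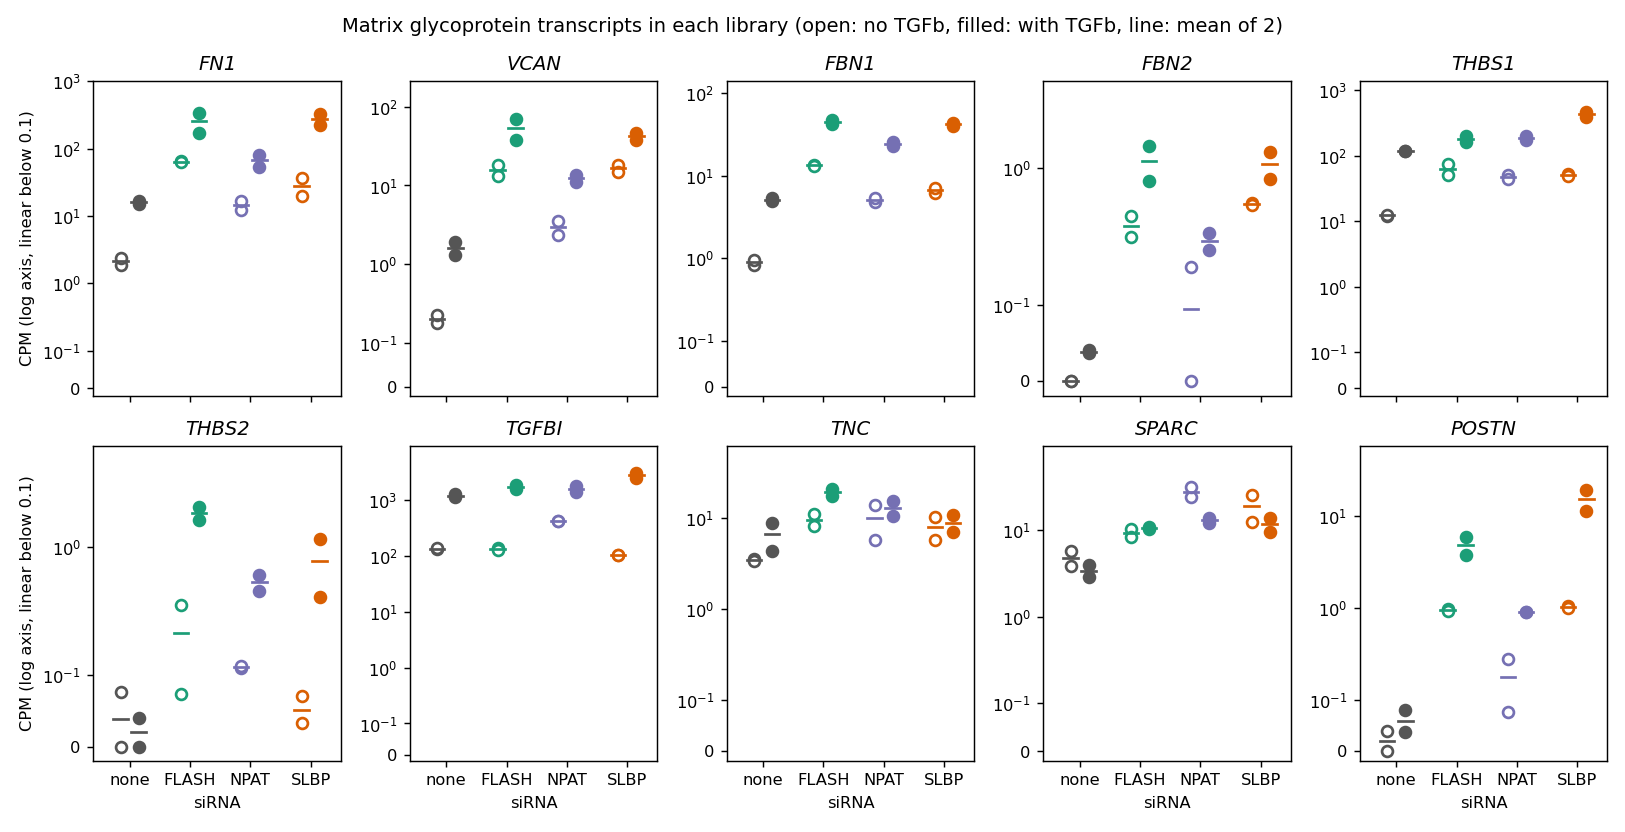
CPM of each of the 10 genes in the 16 libraries (log axis, linear below 0.1), by siRNA, open circles without and filled circles with TGFb, lines at the mean of 2. TGFBI libraries with TGFb lie between 1098 and 3024 CPM and all others at or below 414 CPM, FN1 and FBN1 are lowest in non-transfected cells without TGFb, and SPARC is highest after NPAT siRNA without TGFb.

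TGFb raised the same 5 of the 7 members (FN1, VCAN, FBN1, THBS1 and TGFBI) in non-transfected cells and after each siRNA, and lowered 0 in each by edgeR and by DESeq2 except SPARC after NPAT siRNA in DESeq2. At an unadjusted p below 0.05, SPARC was the 1 member lower after NPAT siRNA and after SLBP siRNA. Over all genes tested, 4.54% rose and 1.64% fell in non-transfected cells, 3.35% rose and 0.755% fell after FLASH siRNA, 3.42% rose and 1.92% fell after NPAT siRNA, and 8.07% rose and 4.51% fell after SLBP siRNA. The median log2 fold change of the 7 members was 2.91 in non-transfected cells and 1.75, 2.01 and 2.65 after FLASH, NPAT and SLBP siRNA, where the median of all genes lay between -0.025 and 0. With the 3 low members 7, 6 and 7 of 10 passed in the siRNA cells, POSTN in each and THBS2 after FLASH and SLBP siRNA. Without FLASH siRNA replicate 1 or replicate 2, 4 of the 10 passed in FLASH siRNA cells.

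Without TGFb, 6 of the 7 members rose against non-transfected cells after FLASH siRNA, 7 after NPAT siRNA and 5 after SLBP siRNA, and 0 fell. At an unadjusted p below 0.05 TGFBI was lower after SLBP siRNA, where it also passed in DESeq2 (adjusted p = 0.047). These siRNAs changed many genes: 20.8% of all genes tested rose and 12.9% fell after FLASH siRNA, 18.9% and 13.3% after NPAT siRNA, and 15.1% and 10.8% after SLBP siRNA. With TGFb in both groups, 7, 6 and 6 of the 7 rose and 0 fell, beside 17.5% of all genes up and 9.06% down for FLASH, 13.7% and 10.3% for NPAT, and 12.3% and 7.6% for SLBP. Under upper-quartile scaling the share of passing genes that rose went from 57.0% to 68.3% for NPAT siRNA with TGFb and from 61.7% to 74.1% for SLBP siRNA with TGFb. The median of the 7 members was 2.36, 2.50 and 2.04 without TGFb and 1.62, 1.93 and 1.85 with TGFb, where the median of all genes was at most 0.065. With the 3 low members the numbers were 8, 7 and 7 of 10 without TGFb and 10, 8 and 9 with TGFb, of which nothing is read. Without non-transfected + TGFb replicate 2 those after FLASH and NPAT siRNA with TGFb were 6 and 5. These 3 comparisons share the same controls at each TGFb condition, so they are not independent of each other.

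Markers of other cell types moved with the siRNA groups. The 12 stellate and fibroblast markers summed to 9.07 to 14.85 CPM in non-transfected cells, with DCN and FAP at 0, and to 69.05 to 263.6 CPM in the 6 siRNA libraries without TGFb. With TGFb they summed to 16.96 to 17.07 CPM in non-transfected cells and to 86.49 to 408.9 CPM after siRNA. Without TGFb the largest part was THY1 after FLASH and NPAT siRNA (46.4 ± 0.992 and 38.1 ± 1.97 CPM) and COL3A1 after SLBP siRNA (132.5 ± 109 CPM). Means of DCN and GFAP stayed at or below 0.513 CPM in each group. FAP was also at 0 after NPAT siRNA without TGFb and in non-transfected cells with TGFb, and reached 4.06 ± 1.16 CPM after SLBP siRNA with TGFb. Of these 12 genes, 8, 6 and 8 rose after FLASH, NPAT and SLBP siRNA without TGFb and 8, 7 and 11 with TGFb. Of all genes tested 20.8%, 18.9% and 15.1% rose without TGFb and 17.5%, 13.7% and 12.3% with TGFb. DES, PDGFRA, DCN, LUM, FAP and GFAP had means of at most 0.0928 CPM in non-transfected cells. They entered the test through siRNA groups, in which they are higher, and could hardly come out lower. The counts of the 12 are therefore a description and not comparable to the share of all genes. The 8 endothelial markers summed to 0.267 to 0.357 CPM in non-transfected cells without TGFb, with PECAM1, VWF, CDH5, TEK, EMCN and CLDN5 at 0, and to 2.4 to 12.8 CPM in the siRNA libraries. Of the 6 epithelial markers, 3, 3 and 1 rose after FLASH, NPAT and SLBP siRNA and 5, 4 and 1 with TGFb. The 1 of 6 after SLBP siRNA lies near the share of all genes. TGFb against none lowered 4 of the 6 in non-transfected cells and 1, 5 and 5 after FLASH, NPAT and SLBP siRNA. Of all genes tested it lowered 1.64%, 0.755%, 1.92% and 4.51% in the same order of cells. The 8 leukocyte markers summed to 28.99 to 189.9 CPM over all libraries, most of it CD68. The part of other cells in the results was not tested, and in these bulk libraries more cells that express a gene and more RNA per cell cannot be told apart.

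**Figure D3:**
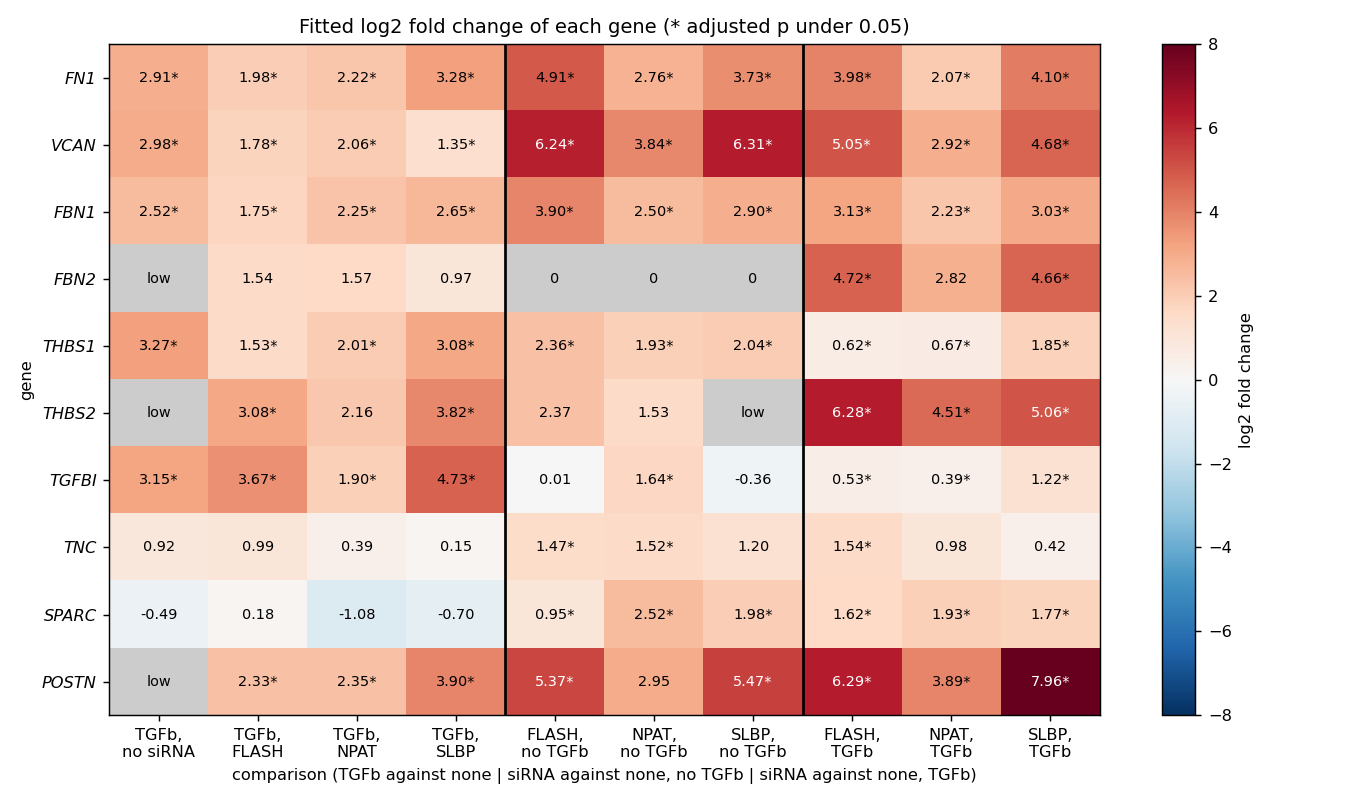
Fitted log2 fold change of each gene (rows) for TGFb against none in the 4 kinds of cells, and for the 3 siRNAs, first without and then with TGFb, against non-transfected cells (columns), from blue (lower) to red (higher), with a star where the adjusted p is under 0.05. Grey cells marked low had 3 counts or fewer in both groups, and grey cells marked 0 had no count in non-transfected cells. No member carries a star in blue, and POSTN after SLBP siRNA with TGFb has the highest value, 7.96. Stars of FBN2, THBS2 and POSTN against non-transfected cells, and of VCAN against those without TGFb, are bound to the filter on low counts. So are the stars for TGFb of THBS2, and of POSTN after NPAT siRNA.

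Fibronectin is the fibril protein whose appearance is a common sign of EMT. FN1 (ENSG00000115414.18, chr2:215360440-215436172 in GRCh38, minus strand) stood at 1.89 and 2.36 CPM in the non-transfected libraries and at 15.1 and 16.8 CPM with TGFb. After FLASH siRNA its level was 65.4 and 62.5 CPM without TGFb, and 171 and 335 CPM with TGFb. FLASH siRNA without TGFb thus lay above non-transfected cells with TGFb. NPAT siRNA libraries held 12.1 and 16.9 CPM, and 54.1 and 80.2 CPM with TGFb, and SLBP siRNA libraries 19.9 and 36.5 CPM, and 224 and 323 CPM with TGFb. In the order of group means SLBP and FLASH siRNA with TGFb came first and overlapped, NPAT siRNA with TGFb overlapped FLASH siRNA, and NPAT siRNA overlapped non-transfected cells with TGFb. TGFb raised FN1 by a log2 of 2.91 ± 0.42 (SE) in non-transfected cells, 1.98 ± 0.34 after FLASH siRNA, 2.22 ± 0.35 after NPAT siRNA and 3.28 ± 0.36 after SLBP siRNA (adjusted p = 0.001, 0.0047, 0.0027 and 6.7e-05). Both libraries with TGFb lay above both without it in all 4 kinds of cells. Against non-transfected cells FN1 rose by 4.91 ± 0.42 after FLASH siRNA, 2.76 ± 0.42 after NPAT siRNA and 3.73 ± 0.42 after SLBP siRNA (adjusted p = 8.2e-06, 0.00064 and 0.00013). With TGFb in both groups the rises were 3.98 ± 0.37, 2.07 ± 0.35 and 4.10 ± 0.37 (adjusted p = 1.8e-05, 0.0017 and 3.1e-05). The rise with TGFb after FLASH siRNA no longer passed without FLASH siRNA replicate 1 (adjusted p = 0.076), without FLASH siRNA replicate 2 (0.067) or without FLASH siRNA + TGFb replicate 2 (0.053).

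Versican is a large proteoglycan that binds hyaluronan and loosens the pericellular matrix. VCAN (ENSG00000038427.15, chr5:83471465-83582303, plus strand) was close to silent in non-transfected cells, at 0.179 and 0.228 CPM or 11 counts in all, and stood at 1.31 and 1.94 CPM with TGFb. FLASH siRNA libraries held 13.0 and 18.4 CPM, and 37.9 and 70.3 CPM with TGFb. SLBP siRNA gave nearly the same picture, with 18.1 and 14.7 CPM, and 38.1 and 45.7 CPM with TGFb. NPAT siRNA lay lower, at 2.38 and 3.58 CPM, and at 11.1 and 13.6 CPM with TGFb, and its libraries did not overlap those of the other 2 siRNAs at either condition. The ratio of CPM to non-transfected cells without TGFb was 77.9 after FLASH siRNA (95% exact counting interval 43.3 to 157.0), 14.6 after NPAT siRNA (7.95 to 29.9) and 81.3 after SLBP siRNA (45.3 to 163.0), and intervals of this kind cover counting error only. In the fit these were log2 rises of 6.24 ± 0.46, 3.84 ± 0.51 and 6.31 ± 0.46 (adjusted p = 2.6e-06, 0.0003 and 7.5e-06), and with TGFb of 5.05 ± 0.35, 2.92 ± 0.34 and 4.68 ± 0.35 (adjusted p = 2.5e-06, 0.0002 and 7.8e-06). VCAN entered the test through groups other than non-transfected cells without TGFb. Its p-values against that group, for siRNA and for TGFb, are thus a description. TGFb raised VCAN by 2.98 ± 0.56 in non-transfected cells, 1.78 ± 0.28 after FLASH siRNA, 2.06 ± 0.32 after NPAT siRNA and 1.35 ± 0.28 after SLBP siRNA (adjusted p = 0.0062, 0.0031, 0.0022 and 0.0074). The first no longer passed without non-transfected replicate 1 (0.08), non-transfected replicate 2 (0.052) or non-transfected + TGFb replicate 2 (0.057), the second without FLASH siRNA replicate 1 (0.077), and the last without SLBP siRNA replicate 2 (0.06) or SLBP siRNA + TGFb replicate 2 (0.058).

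Fibrillin-1 is the backbone of microfibrils and an anchor of latent TGFb. FBN1 (ENSG00000166147.13, chr15:48408306-48645849, minus strand) was separated by little between its 2 libraries in each group. It stood at 0.821 and 0.952 CPM in non-transfected cells, 4.91 and 5.28 CPM with TGFb, 13.5 and 13.0 CPM after FLASH siRNA and 42.6 and 46.6 CPM after FLASH siRNA with TGFb. NPAT siRNA gave 4.75 and 5.32 CPM, and 22.5 and 25.4 CPM with TGFb, and SLBP siRNA 6.19 and 7.09 CPM, and 39.3 and 43.9 CPM with TGFb. In the order of means, FLASH and SLBP siRNA with TGFb overlapped, as did non-transfected cells with TGFb and NPAT siRNA, and every other pair of neighbours was separate. TGFb raised FBN1 by 2.52 ± 0.17, 1.75 ± 0.13, 2.25 ± 0.13 and 2.65 ± 0.13 in non-transfected, FLASH, NPAT and SLBP siRNA cells (adjusted p = 1.7e-06, 5.9e-06, 1.7e-06 and 1e-07). Against non-transfected cells it rose by 3.90 ± 0.16, 2.50 ± 0.17 and 2.90 ± 0.16 after FLASH, NPAT and SLBP siRNA (adjusted p = 1.6e-07, 3.9e-06 and 1.1e-06), and with TGFb by 3.13 ± 0.14, 2.23 ± 0.13 and 3.03 ± 0.14 (adjusted p = 2.7e-07, 3.2e-06 and 1.5e-07). None of these 10 calls was lost when any 1 library was left out.

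Fibrillin-2 is the second microfibril fibrillin, prominent in developing tissue. FBN2 (ENSG00000138829.11, chr5:128257909-128659185, minus strand) had 0 counts in the non-transfected libraries, and its fold is given as a bound against a floor of 3 counts over the group. It was at least 6.87-fold higher after FLASH siRNA (0.314 and 0.442 CPM) and at least 9.81-fold higher after SLBP siRNA (0.554 and 0.529 CPM), with 20 and 32 counts. After NPAT siRNA it reached 0.189 CPM in 1 library and 0 in the other, at least 1.74-fold higher over the group. With TGFb, the 2 counts in non-transfected cells compared with 63 after FLASH siRNA (ratio 29.1, interval 7.72 to 245), 53 after SLBP siRNA (28.2, 7.43 to 239) and 16 after NPAT siRNA (7.85, 1.85 to 70.4). TGFb itself gave log2 fold changes of 1.54 ± 0.57 after FLASH siRNA, 1.57 ± 0.82 after NPAT siRNA and 0.97 ± 0.55 after SLBP siRNA, none of which passed (adjusted p = 0.2, 0.36 and 0.3).

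Thrombospondin-1 activates latent TGFb and binds CD36 and CD47. THBS1 (ENSG00000137801.10, chr15:39581079-39599466, plus strand) stood at 11.9 and 12.4 CPM in non-transfected cells and at 116 and 119 CPM with TGFb. FLASH siRNA libraries held 74.6 and 50.4 CPM, and 201 and 159 CPM with TGFb. NPAT siRNA libraries were similar, with 49.6 and 43.4 CPM, and 174 and 200 CPM with TGFb. SLBP siRNA began at a like level, 51.7 and 48.4 CPM, and ended highest of all groups with TGFb, at 393 and 456 CPM, separate from the next. TGFb raised THBS1 by 3.27 ± 0.19 in non-transfected cells, 1.53 ± 0.17 after FLASH siRNA, 2.01 ± 0.17 after NPAT siRNA and 3.08 ± 0.18 after SLBP siRNA (adjusted p = 4.2e-07, 0.00023, 2.6e-05 and 3.3e-07). Against non-transfected cells it rose by 2.36 ± 0.18, 1.93 ± 0.18 and 2.04 ± 0.18 after FLASH, NPAT and SLBP siRNA (adjusted p = 3.4e-06, 3.2e-05 and 2.5e-05). With TGFb the rises were 0.62 ± 0.17, 0.67 ± 0.17 and 1.85 ± 0.17 (adjusted p = 0.016, 0.013 and 3.1e-05). The rise after FLASH siRNA with TGFb was lost without either non-transfected + TGFb library (0.091 and 0.078) or without FLASH siRNA + TGFb replicate 1 (0.13), and that after NPAT siRNA with TGFb without either non-transfected + TGFb library (0.06 and 0.072) or without NPAT siRNA + TGFb replicate 2 (0.099).

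Thrombospondin-2, an inhibitor of angiogenesis, was scarce. THBS2 (ENSG00000186340.14, chr6:169215780-169254044, minus strand, matched to the annotation without its version) reached 1.62 and 2.02 CPM after FLASH siRNA with TGFb, 1.15 and 0.407 CPM after SLBP siRNA with TGFb and 0.455 and 0.602 CPM after NPAT siRNA with TGFb. Its 10 other libraries lay between 0 and 0.353 CPM. Only the 3 groups with both siRNA and TGFb thus had more than 0.353 CPM in both libraries, and the gene entered the test through them, so its p-values with TGFb are a description. With TGFb against none its log2 fold change was 3.08 ± 0.66 after FLASH siRNA, 3.82 ± 0.87 after SLBP siRNA and 2.16 ± 0.80 after NPAT siRNA (adjusted p = 0.021, 0.012 and 0.17). With TGFb, the count ratio to the 1 count of non-transfected cells was 96.0 after FLASH siRNA (interval 16.9 to 3830), 28.4 after NPAT siRNA (4.72 to 1160) and 41.5 after SLBP siRNA (7.02 to 1680). Without TGFb all groups had at most 11 counts. The call with TGFb was lost after FLASH siRNA without FLASH siRNA replicate 2 (2.35, adjusted p = 0.2) or without either FLASH siRNA + TGFb library (0.067 and 0.1). After SLBP siRNA it was lost without SLBP siRNA replicate 1 (0.057) or replicate 2 (0.053), without SLBP siRNA + TGFb replicate 1 (2.89, adjusted p = 0.12), and in a fit of the compared groups alone (0.079). Without FLASH siRNA replicate 1 the change after FLASH siRNA was 4.52.

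TGFBI, a secreted protein that links collagens to integrins, took its name from its induction by TGFb. TGFBI (ENSG00000120708.16, chr5:136028895-136063818, plus strand) stood at 129 and 136 CPM in non-transfected cells and at 1257 and 1098 CPM with TGFb. FLASH siRNA libraries held 139 and 127 CPM, and 1581 and 1814 CPM with TGFb. The libraries of FLASH siRNA and of non-transfected cells overlapped without TGFb and were separate with it. NPAT siRNA lay higher without TGFb, at 414 and 413 CPM, and held 1738 and 1357 CPM with TGFb. SLBP siRNA had the lowest level without TGFb, 103 and 103 CPM, and the highest with TGFb, 2453 and 3024 CPM, both separate from the neighbouring group. TGFb raised TGFBI by 3.15 ± 0.14 in non-transfected cells, 3.67 ± 0.15 after FLASH siRNA, 1.90 ± 0.14 after NPAT siRNA and 4.73 ± 0.15 after SLBP siRNA (adjusted p = 6.9e-08, 5.5e-08, 5.7e-06 and 7.9e-09). Without TGFb, NPAT siRNA raised it by 1.64 ± 0.14 (adjusted p = 1.5e-05), while the differences of 0.01 ± 0.13 after FLASH siRNA and -0.36 ± 0.13 after SLBP siRNA did not pass (adjusted p = 0.98 and 0.062). With TGFb it rose by 0.53 ± 0.13, 0.39 ± 0.13 and 1.22 ± 0.13 after FLASH, NPAT and SLBP siRNA (adjusted p = 0.011, 0.047 and 0.00011). The rise after FLASH siRNA with TGFb was lost without non-transfected + TGFb replicate 2 (0.1) or FLASH siRNA + TGFb replicate 2 (0.11). That after NPAT siRNA with TGFb was lost in a fit of the compared groups alone (0.074), without either non-transfected + TGFb library (0.056 and 0.26) and without NPAT siRNA + TGFb replicate 1 (0.34).

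Tenascin C is a large hexameric matricellular protein of wounds and tumour stroma. TNC (ENSG00000041982.15, chr9:115019578-115118257, minus strand) stood at 3.57 and 3.39 CPM in non-transfected cells, 8.88 and 4.38 CPM with TGFb, 11.1 and 8.21 CPM after FLASH siRNA and 17.7 and 20.7 CPM after FLASH siRNA with TGFb. NPAT siRNA gave 14.1 and 5.83 CPM, and 15.6 and 10.6 CPM with TGFb, and SLBP siRNA 10.2 and 5.79 CPM, and 10.7 and 7.0 CPM with TGFb. Of the 7 pairs of neighbours in the order of group means, 5 overlapped. TGFb changed TNC detectably in 0 of 4 kinds of cells, with log2 fold changes of 0.92 ± 0.45, 0.99 ± 0.42, 0.39 ± 0.42 and 0.15 ± 0.42 in non-transfected, FLASH, NPAT and SLBP siRNA cells (adjusted p = 0.31, 0.25, 0.7 and 0.87, of which FLASH siRNA alone had an unadjusted p below 0.05 and 0 passed in DESeq2). FLASH siRNA raised it without and with TGFb, by 1.47 ± 0.45 and 1.54 ± 0.43 (adjusted p = 0.023 and 0.018), and NPAT siRNA without TGFb by 1.52 ± 0.45 (adjusted p = 0.021). The changes after NPAT siRNA with TGFb (0.98 ± 0.43), after SLBP siRNA (1.2 ± 0.44) and after SLBP siRNA with TGFb (0.42 ± 0.43) did not pass (adjusted p = 0.11, 0.065 and 0.53), though that after SLBP siRNA passed in DESeq2 (0.024). Each of the 3 calls rested on single libraries. That after FLASH siRNA was lost without either non-transfected library (0.1 and 0.1) or without FLASH siRNA replicate 1 (0.14), and with TGFb without non-transfected + TGFb replicate 2 (0.16) or FLASH siRNA + TGFb replicate 2 (0.1). That after NPAT siRNA was lost without either non-transfected library (0.098 and 0.094), in a fit of the compared groups alone (0.055), and without NPAT siRNA replicate 1, where it was 0.74 (adjusted p = 0.24). The response to TGFb in FLASH siRNA cells passed in a fit of the compared groups alone (0.0043).

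SPARC binds collagen and helps its deposition, and loosens cell adhesion. The gene (ENSG00000113140.10, chr5:151661096-151687165, minus strand) stood at 3.86 and 5.71 CPM in non-transfected cells and at 3.92 and 2.87 CPM with TGFb. Its highest group was NPAT siRNA without TGFb, at 23.8 and 31 CPM, followed by SLBP siRNA without TGFb, at 12.2 and 25.7 CPM, which overlapped it. FLASH siRNA libraries held 10.3 and 8.21 CPM, and 10.8 and 10.1 CPM with TGFb. With TGFb, NPAT siRNA libraries held 12.2 and 13.7 CPM and SLBP siRNA libraries 13.7 and 9.49 CPM, so all siRNA groups lay above both non-transfected groups. TGFb changed SPARC detectably in 0 of 4 kinds of cells, with -0.49 ± 0.35 in non-transfected cells, 0.18 ± 0.32 after FLASH siRNA, -1.08 ± 0.31 after NPAT siRNA and -0.70 ± 0.31 after SLBP siRNA (adjusted p = 0.54, 0.85, 0.07 and 0.18). After NPAT siRNA both libraries with TGFb lay below both without it, and the difference passed in DESeq2 (adjusted p = 0.018). After SLBP siRNA it passed without SLBP siRNA replicate 1 (-1.14, adjusted p = 0.014). Each siRNA raised SPARC, without TGFb by 0.95 ± 0.33, 2.52 ± 0.33 and 1.98 ± 0.33 after FLASH, NPAT and SLBP siRNA (adjusted p = 0.043, 0.00029 and 0.0015), and with TGFb by 1.62 ± 0.34, 1.93 ± 0.34 and 1.77 ± 0.34 (adjusted p = 0.0041, 0.0021 and 0.0036). The rise after FLASH siRNA was lost without non-transfected replicate 1 (0.29) or either FLASH siRNA library (0.23 and 0.069). The rises after FLASH and SLBP siRNA with TGFb were lost without non-transfected + TGFb replicate 2 (0.052 and 0.052). That after SLBP siRNA without TGFb was 1.35 without SLBP siRNA replicate 2, and lost in a fit of the compared groups alone (0.059).

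Periostin is a matricellular protein that supports collagen cross-linking and is best known from stromal cells. POSTN (ENSG00000133110.14, chr13:37562583-37598844, minus strand) had 1 count in the non-transfected libraries together and 3 with TGFb. SLBP siRNA libraries held 1.04 and 0.988 CPM, and 11.2 and 19.3 CPM with TGFb. FLASH siRNA libraries held 0.980 and 0.921 CPM, and 3.77 and 5.84 CPM with TGFb. SLBP siRNA with TGFb was thus the highest group and separate from the next, FLASH siRNA with TGFb. NPAT siRNA gave 0.0754 and 0.276 CPM, and 0.910 and 0.903 CPM with TGFb. TGFb raised POSTN by 2.33 ± 0.38 after FLASH siRNA, 2.35 ± 0.54 after NPAT siRNA and 3.90 ± 0.38 after SLBP siRNA (adjusted p = 0.0036, 0.025 and 3e-05). NPAT siRNA cells without TGFb held 9 counts in total, so POSTN entered the test through other groups. Its p-values against NPAT siRNA cells without TGFb are thus a description. Against non-transfected cells without TGFb the count ratio was 51.5 after FLASH siRNA (interval 8.83 to 2080), 55.2 after SLBP siRNA (9.53 to 2220) and 9.41 after NPAT siRNA (1.30 to 412). With TGFb it was 84.0 after FLASH siRNA (28.4 to 410), 16 after NPAT siRNA (5.17 to 80.4) and 269 after SLBP siRNA (91.5 to 1310). The rise with TGFb was lost after FLASH siRNA without FLASH siRNA replicate 1 (0.058) or replicate 2 (0.057). After NPAT siRNA it was lost without NPAT siRNA replicate 1 (1.70, adjusted p = 0.15), without either NPAT siRNA + TGFb library (0.096 and 0.1) and in a fit of the compared groups alone (0.14), and was 3.51 without NPAT siRNA replicate 2. Against non-transfected cells without TGFb, the fitted changes after FLASH and SLBP siRNA were 5.37 ± 0.79 and 5.47 ± 0.78, and moved to 7.69 and 7.79 without non-transfected replicate 2 and to 4.43 and 4.56 without replicate 1. With TGFb, those after NPAT and SLBP siRNA were 3.89 ± 0.67 and 7.96 ± 0.55, and moved to 4.51 and 8.56 without non-transfected + TGFb replicate 1.

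The 3 siRNAs were set against each other at the same TGFb condition. FLASH against NPAT siRNA without TGFb, 6 of the 10 members passed, beside 22.3% of all genes tested in either direction. Of the 7 members other than FBN2, THBS2 and POSTN, 3 were higher and 2 lower, and with TGFb 3 were higher and 0 lower. FN1 (2.15 ± 0.35, adjusted p = 0.0016), VCAN (2.4 ± 0.32, 0.00055), FBN1 (1.4 ± 0.13, 0.00011) and POSTN (2.42 ± 0.54, 0.0084) were higher after FLASH siRNA, and TGFBI (-1.63 ± 0.14, 5e-05) and SPARC (-1.57 ± 0.32, 0.0051) lower. With TGFb the same 4 genes were higher, by 1.91 ± 0.34, 2.12 ± 0.29, 0.89 ± 0.12 and 2.4 ± 0.38 (adjusted p = 0.0041, 0.0012, 0.0013 and 0.0023), beside 13.6% of all genes, and 0 were lower. POSTN held 9 counts after NPAT siRNA without TGFb and entered the test through other groups, so its p without TGFb is a description. Without TGFb, POSTN was 1.77 without NPAT siRNA replicate 1 (adjusted p = 0.063) and 3.58 without replicate 2, and SPARC was lost without FLASH siRNA replicate 2 (0.051). THBS1 passed without FLASH siRNA replicate 2 (0.68, adjusted p = 0.021), and FBN2 without NPAT siRNA replicate 1, which leaves NPAT siRNA at 0 counts (0.018). With TGFb, FBN2 (1.90, adjusted p = 0.055) and THBS2 (1.76, 0.065) passed in a fit of the compared groups alone (0.037 and 0.019). With TGFb, FN1 was lost without FLASH siRNA + TGFb replicate 2 (0.056).

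FLASH and SLBP siRNA differed in 3 of the 10 members without TGFb, beside 26.2% of all genes tested. Of the 7 members other than FBN2, THBS2 and POSTN, 2 were higher and 1 lower after FLASH siRNA, and with TGFb 0 were higher and 2 lower. FN1 (1.18 ± 0.34, adjusted p = 0.022) and FBN1 (1.00 ± 0.13, 0.00038) were higher after FLASH siRNA, and SPARC was lower (-1.03 ± 0.32, 0.031). The SPARC difference fell to -0.40 without SLBP siRNA replicate 2 (adjusted p = 0.35), was lost without either FLASH siRNA library (0.085 and 0.17) and in a fit of the compared groups alone (0.12). The FN1 difference was lost without either FLASH siRNA library (0.11 and 0.069), without SLBP siRNA replicate 1 (0.12) and in a fit of the compared groups alone (0.06), so that 1 member passed without FLASH siRNA replicate 1. THBS1 passed without FLASH siRNA replicate 2 (0.58, adjusted p = 0.033), and TGFBI (0.37, adjusted p = 0.059) in DESeq2 (0.045). With TGFb 3 members were lower after FLASH siRNA, beside 13.0% of all genes: POSTN (-1.67 ± 0.33, adjusted p = 0.008), TGFBI (-0.69 ± 0.13, 0.0067) and THBS1 (-1.24 ± 0.17, 0.0012). POSTN was lost without FLASH siRNA + TGFb replicate 1 (0.064) or SLBP siRNA + TGFb replicate 2 (0.099), and TGFBI without SLBP siRNA + TGFb replicate 2 (0.072), so that 1 member passed in that case. TNC (1.11, adjusted p = 0.099) passed in a fit of the compared groups alone (0.015).

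NPAT and SLBP siRNA differed in 4 of the 10 members without TGFb, beside 16% of all genes tested. Of the 7 members other than FBN2, THBS2 and POSTN, 1 was higher and 1 lower after NPAT siRNA, and with TGFb 0 were higher and 5 lower. FBN2 held at most 0.334 CPM in any NPAT siRNA library, so it entered the test through other groups and its p here is a description. POSTN held 9 counts after NPAT siRNA without TGFb, so the same holds for its p without TGFb. TGFBI was higher after NPAT siRNA (2.00 ± 0.14, adjusted p = 5e-06), and VCAN (-2.46 ± 0.32, 0.00038), POSTN (-2.52 ± 0.53, 0.0077) and FBN2 (-2.44 ± 0.76, 0.049) were lower. With TGFb 6 members were lower after NPAT siRNA and 0 higher, beside 12.4% of all genes. These were FN1 (-2.02 ± 0.34, adjusted p = 0.0026), VCAN (-1.76 ± 0.29, 0.0023), FBN1 (-0.79 ± 0.12, 0.0017), THBS1 (-1.18 ± 0.17, 0.001), TGFBI (-0.82 ± 0.13, 0.0021) and POSTN (-4.06 ± 0.39, 8.9e-05). TGFBI was thus higher after NPAT than after SLBP siRNA without TGFb and lower with it. Without TGFb, POSTN was -1.86 without NPAT siRNA replicate 1 (adjusted p = 0.072) and -3.67 without replicate 2. FBN2 was lost without any 1 of SLBP siRNA replicate 1 (0.1), SLBP siRNA replicate 2 (0.089) and NPAT siRNA replicate 2 (-1.50, adjusted p = 0.17), and without NPAT siRNA replicate 1, which held its 5 counts, NPAT siRNA was at 0. In a fit of the compared groups alone VCAN, POSTN and FBN2 were lost (0.065, 0.15 and 0.29). FN1 (-0.96 ± 0.35, adjusted p = 0.08) passed in DESeq2 (0.024) and without SLBP siRNA replicate 1 (-1.34, adjusted p = 0.029), and SPARC (0.53, adjusted p = 0.27) without SLBP siRNA replicate 2 (1.17, adjusted p = 0.021).

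Whether the siRNAs altered the response to TGFb was tested as a difference of log2 responses. The TGFBI response was larger after SLBP siRNA than in non-transfected cells, by 1.58 ± 0.19 (adjusted p = 0.011), and smaller after NPAT siRNA, by a difference of -1.25 ± 0.19 (adjusted p = 0.046). Between siRNAs the TGFBI response differed by 1.77 ± 0.19 for FLASH minus NPAT (adjusted p = 0.0098) and by -2.83 ± 0.19 for NPAT minus SLBP (adjusted p = 5.2e-05). THBS1 responded less after FLASH siRNA, by -1.74 ± 0.24 against non-transfected cells (adjusted p = 0.015) and by -1.56 ± 0.24 against SLBP siRNA (adjusted p = 0.027). So 1 member passed in each of these 6 comparisons, beside 0.0845% of all genes tested for FLASH siRNA minus non-transfected, 0.0451% for NPAT siRNA minus non-transfected, 0.0225% for SLBP siRNA minus non-transfected, 0.00564% for FLASH minus NPAT siRNA, 0.135% for FLASH minus SLBP siRNA and 0.0564% for NPAT minus SLBP siRNA. In FLASH minus NPAT siRNA, TGFBI was the 1 gene of 17743 that passed. For the other members with more than a few counts, such as FBN1 (-0.77 ± 0.21 for FLASH siRNA minus non-transfected, adjusted p = 0.72; -0.90 ± 0.18 for FLASH minus SLBP siRNA, adjusted p = 0.09) and VCAN (-1.63 ± 0.65 for SLBP siRNA minus non-transfected, adjusted p = 0.95), no difference of response passed. In FLASH minus SLBP siRNA, the lowest adjusted p of the 9 members that did not pass was 0.064. The response of TGFBI starts from unequal levels, since NPAT siRNA alone already stood at 414 and 413 CPM and SLBP siRNA alone at 103 CPM. Only the difference of TGFBI between NPAT and SLBP siRNA passed without each library in turn. For THBS1 in FLASH siRNA minus non-transfected the call was lost without any of the 4 non-transfected libraries (adjusted p = 0.07 to 0.15) or FLASH siRNA + TGFb replicate 2 (0.083). For TGFBI in NPAT siRNA minus non-transfected it was lost without any of the 4 non-transfected libraries (0.1 to 0.39), either NPAT siRNA library (0.16 and 0.2) or NPAT siRNA + TGFb replicate 2 (0.26), with 2 other scalings (0.051 and 0.079) and in a fit of the compared groups alone (0.15). For TGFBI in SLBP siRNA minus non-transfected it was lost without either non-transfected library (0.063 and 0.09), non-transfected + TGFb replicate 2 (0.15), SLBP siRNA replicate 2 (0.068) or SLBP siRNA + TGFb replicate 2 (0.063), and in a fit of the compared groups alone (0.17). For TGFBI in FLASH minus NPAT siRNA it was lost without either FLASH siRNA library (0.073 and 0.15), either NPAT siRNA library (0.055 and 0.054) or NPAT siRNA + TGFb replicate 2 (0.058), and in a fit of the compared groups alone (0.087). For THBS1 in FLASH minus SLBP siRNA it was lost without FLASH siRNA replicate 1 (0.11), SLBP siRNA replicate 2 (0.096), either FLASH siRNA + TGFb library (0.13 and 0.13) or SLBP siRNA + TGFb replicate 2 (0.13), and in a fit of the compared groups alone (0.16).

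**Figure D4:**
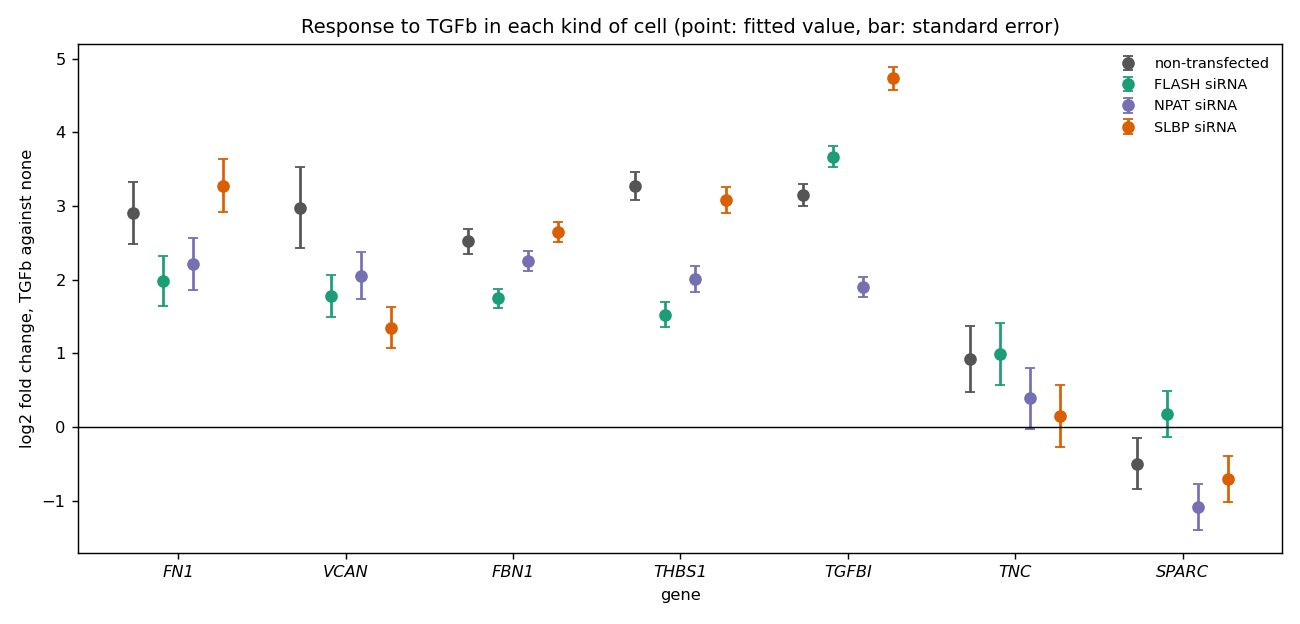
Fitted log2 fold change with TGFb against none (y axis, bars are the SE) for the 7 genes with most counts (x axis) in non-transfected cells and after each siRNA. TGFBI spreads from 1.90 after NPAT siRNA to 4.73 after SLBP siRNA, THBS1 is lowest after FLASH siRNA at 1.53, and TNC and SPARC lie between -1.08 and 0.99.

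Other genes of the matrix were described from lists written out by role. The lists were made with earlier results of these data known, so their counts are a description. Among the genes tested, 5 of 38 other glycoproteins and 5 of 18 proteases had 3 counts or fewer in both non-transfected groups. So had 1 receptor and 1 microfibril partner. Such genes entered the test through siRNA groups, in which they are higher, and nothing is read from their part in the counts. Of all genes tested 4.54%, 3.35%, 3.42% and 8.07% rose with TGFb in non-transfected, FLASH, NPAT and SLBP siRNA cells. Against non-transfected cells 20.8%, 18.9% and 15.1% rose after FLASH, NPAT and SLBP siRNA, and 17.5%, 13.7% and 12.3% with TGFb. Some list counts lie near these shares, such as 4 of 20 receptors after FLASH siRNA with TGFb. Of 15 known TGFb targets 14 rose with TGFb in non-transfected cells and the same number after each siRNA. Among them COL4A1, a basement membrane collagen, went from 0.257 ± 0.0405 to 19.95 ± 1.38 CPM in non-transfected cells (SD, n = 2). It was low there without TGFb and entered the test through groups in which it is higher, so no fold or p is given for it. After FLASH, NPAT and SLBP siRNA 6, 7 and 8 of the 15 rose and 0, 0 and 1 fell, and with TGFb 5, 3 and 7 rose and 4, 1 and 1 fell. Of 20 receptors and binding partners of the members, 7, 5, 6 and 7 rose with TGFb in non-transfected, FLASH, NPAT and SLBP siRNA cells and 0, 0, 1 and 1 fell. ITGB3, the beta subunit of the vitronectin receptor that also binds fibronectin, went from 12.7 ± 3.49 to 92.2 ± 21.0 CPM in non-transfected cells (log2 2.86, adjusted p = 0.0004), and ITGAV, its alpha partner, from 212 ± 26.9 to 629 ± 8.68 CPM (1.56, adjusted p = 6.4e-05). Against non-transfected cells 9, 9 and 7 receptors rose after FLASH, NPAT and SLBP siRNA and 0, 0 and 1 fell. Among them ITGA5, the alpha subunit of the classical fibronectin receptor, rose by 1.33, 1.99 and 1.73 (adjusted p = 7.3e-05, 1.2e-05 and 3e-05). With TGFb 4, 7 and 5 rose and 0 fell, ITGA5 again among them with 1.2, 1.66 and 1.33 (adjusted p = 0.00017, 5e-05 and 0.00016).

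Of 20 partners of the fibrillins in microfibrils and elastic fibres, 7, 6, 8 and 10 rose with TGFb in the same order of cells and 0 fell. LTBP2, a latent TGFb binding protein that attaches to fibrillin-1, went from 367 ± 0.200 to 3009 ± 131 CPM in non-transfected cells (SD, n = 2, log2 3.03, adjusted p = 5.4e-08). After FLASH, NPAT and SLBP siRNA 9, 12 and 7 of these partners rose and 0, 1 and 0 fell, and with TGFb 10, 9 and 9 rose and 2, 1 and 0 fell. EFEMP1, a fibulin of elastic fibres, rose from 5.85 ± 0.552 to 23.7 ± 1.90 CPM after FLASH siRNA (log2 2.02, adjusted p = 1e-05) and to 34.3 ± 4.47 CPM after SLBP siRNA (2.55, adjusted p = 6.3e-06). Of 24 enzymes of matrix assembly and cross-linking, 9, 5, 8 and 11 rose with TGFb and 0 fell. LOX, the lysyl oxidase that cross-links collagen and elastin, rose with TGFb after FLASH siRNA from 5.58 ± 0.0305 to 29.1 ± 4.00 CPM (2.38, adjusted p = 0.00014). After the siRNAs 11, 17 and 11 of these enzymes rose and 1, 0 and 1 fell, and with TGFb 6, 12 and 9 rose and 1, 0 and 1 fell.

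Among 42 other matrix glycoproteins and proteoglycans, of which 38 were tested, 8, 7, 10 and 11 rose with TGFb and 1, 0, 1 and 2 fell. COMP, a thrombospondin of cartilage and fibrotic stroma, had 0.0559 ± 0.0286 CPM in non-transfected cells, 2.53 ± 0.0148 CPM with TGFb and 10.7 ± 0.523 CPM after FLASH siRNA. It was near the floor in non-transfected cells and entered the test through groups in which it is higher. No fold or p is therefore given for it. After FLASH, NPAT and SLBP siRNA 19, 22 and 23 of the 38 rose and 1, 0 and 0 fell, and with TGFb 22, 20 and 23 rose and 2, 0 and 0 fell. Of 19 proteases that cut members, 18 were tested, and 4, 4, 4 and 8 rose with TGFb and 0 fell, among them the gelatinase MMP2, from 84.2 ± 38.8 to 619 ± 24.9 CPM in non-transfected cells (2.88, adjusted p = 8e-05). After the siRNAs 11, 10 and 9 rose and 1, 1 and 1 fell, and with TGFb 9, 9 and 11 rose and 0, 1 and 0 fell. MMP1, the interstitial collagenase, stood at 0.331 ± 0.0371 CPM in non-transfected cells and at 16.5 ± 4.19 CPM after FLASH siRNA. It too was low in non-transfected cells and entered the test through groups in which it is higher, so no fold or p is given for it. The lists' median log2 fold changes in non-transfected cells with TGFb, with low genes treated as for the members, were 0.293 for receptors, 0.944 for microfibril partners, 0.580 for enzymes, 0.399 for other glycoproteins and 0.530 for proteases, below the 2.91 of the 7 members, and 3.01 for the TGFb targets, above it.

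Across the 8 group means, the members fell into patterns that are described by Pearson's r of log2 CPM, with no test since the means share libraries and controls. FN1 and FBN1 were most alike (r = 0.989), followed by VCAN and FBN2 (0.969), FBN2 and POSTN (0.963) and FN1 and VCAN (0.956). SPARC was least like the rest, with r from -0.055 with TGFBI to 0.487 with TNC. TGFBI was closest to THBS1 (0.859). Among 14170 other genes with a mean of at least 1 CPM, SERPINE2, an inhibitor of extracellular serine proteases, had the pattern closest to both FN1 (0.993) and FBN1 (0.994). The closest gene to VCAN was FST, which encodes follistatin (0.978), to THBS1 the collagen gene COL4A4 (0.990), to TGFBI FLJ16779 (0.992), to TNC BAMBI (0.973), to SPARC DYNC2H1 (0.983) and to POSTN ROBO4 (0.981).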

How the data were processed

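RNA of 16 libraries of PANC-1 cells was sequenced from a stranded poly(A) kit, per the labels' protocols. STAR 2.4.2a, RSEM 1.2.31 and the build GRCh38.p10 are named in the submitters' processing notes, while the annotation and whether counting used strand are not given in the sources used here. The authors deposited RSEM expected counts and TPM per gene. Another 32 columns were not used. Expected counts were rounded and tested with edgeR 4.0.16 (quasi-likelihood F test, R 4.3.3) after filterByExpr (17743 of 58219 genes) and TMM scaling, in 1 fit of the 8 groups without a replicate block, with p-values adjusted by Benjamini-Hochberg over those genes, for 22 comparisons. The SE is the log2 fold change divided by the square root of F. The fit was checked on simulated counts. TPM serves only to compare genes. Positions are from GENCODE release 29.

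The members and lists were chosen with earlier results of these data known. All 10 members were tested in each comparison. Between siRNAs and for differences of response, those that passed are named with only some of those that did not. List genes named are among those of largest change. Each other gene of the likeness measure had a mean of at least 1 CPM. Alternatives were DESeq2 1.42.0, RLE and upper-quartile scaling, other filters, a fit of the compared groups alone, a replicate block, and leaving out each library.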

Additional observations from a re-analysis of the deposited data

Results flagged for a closer look

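In 6 comparisons the response to TGFb differed between kinds of cells by the test of the difference itself, each for 1 member. For THBS1 the log2 response of FLASH siRNA cells minus that of non-transfected cells was -1.74 (adjusted p = 0.015), and minus that of SLBP siRNA cells -1.56 (adjusted p = 0.027). For TGFBI the difference from non-transfected cells was -1.25 after NPAT siRNA (adjusted p = 0.046) and 1.58 after SLBP siRNA (adjusted p = 0.011). Between siRNAs the TGFBI response differed by 1.77 for FLASH minus NPAT (adjusted p = 0.0098) and by -2.83 for NPAT minus SLBP (adjusted p = 5.2e-05). The part of the starting level before TGFb in these differences was not tested.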

How the results depend on the processing

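No member that passed changed direction under any alternative run. Differences that did not pass and changed sign were TGFBI after FLASH siRNA against non-transfected cells (-0.036 without a filter on low counts, -0.0046 in a fit of the compared groups alone) and TNC in FLASH against NPAT siRNA (0.012 with the replicate block). The cause was not tested.

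The number of members that passed moved by over 1.5 times as follows. In a fit of the compared groups alone it was 1 for FLASH and for NPAT against SLBP siRNA, and 0 for each difference of response except FLASH siRNA minus non-transfected and NPAT minus SLBP siRNA. Without a filter it was 2 for the 3 differences of response from non-transfected cells and for FLASH minus NPAT, and 3 for FLASH and NPAT minus SLBP. In DESeq2 it was 2 for NPAT siRNA minus non-transfected, 3 for FLASH minus SLBP and 2 for NPAT minus SLBP, and with RLE or upper-quartile scaling 0 for NPAT siRNA minus non-transfected.

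Leaving out 1 library gave 4 to 6 members for TGFb in FLASH siRNA cells, 6 to 9 and 5 to 7 for FLASH and NPAT siRNA with TGFb against non-transfected cells, and 1 to 2 without and 1 to 3 with TGFb for FLASH against SLBP siRNA. It gave 0 to 1 for the differences of response of each siRNA minus non-transfected and FLASH minus NPAT, and 0 to 2 for FLASH minus SLBP. Differences that did not pass and whose sign turned spanned, with TGFb against none, -3.19 to 2.35 (THBS2, non-transfected), -0.11 to 1.16 (TNC, NPAT siRNA) and -0.20 to 0.61 (TNC, SLBP siRNA). Against non-transfected cells they spanned -0.11 to 0.066 (TGFBI, FLASH siRNA), 0.0 to 5.39 (FBN2, NPAT siRNA), -0.57 to 3.59 (THBS2, SLBP siRNA) and -0.0027 to 1.02 (TNC, SLBP siRNA with TGFb). Between siRNAs without TGFb they spanned -0.55 to 0.72 (TNC) and -0.63 to 1.57 (THBS2) for FLASH against NPAT, -0.34 to 0.14 (VCAN), -0.011 to 0.58 (THBS1) and -0.079 to 0.73 (TNC) for FLASH against SLBP, and -0.46 to 0.82 (TNC) for NPAT against SLBP. With TGFb they spanned -0.24 to 0.10 (THBS1) and -0.034 to 0.32 (TGFBI) for FLASH against NPAT, -0.68 to 0.29 (FN1), -0.14 to 0.75 (VCAN), -0.42 to 0.42 (FBN2) and -0.39 to 0.14 (SPARC) for FLASH against SLBP, and -1.10 to 0.38 (THBS2) and -0.082 to 0.45 (SPARC) for NPAT against SLBP. THBS2 also turned with TGFb in non-transfected cells and after SLBP siRNA against them, but had 3 counts or fewer in both groups. FBN2 after NPAT siRNA did not turn against non-transfected cells, but without NPAT siRNA replicate 1 both groups were at 0 counts.

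The replicate numbers gave correlations of deviations from 0.0504 to 0.528 over 28 pairs of groups, above 0.1 in 25 and under -0.1 in 0. Since 3 pairs were not above 0.1 and the labels tie a number to no shared culture or day, the fit without the block was kept, although most pairs deviated together, a hint from the data of an effect shared by number. With the replicate block, 14 member differences passed in the 16 direct comparisons that did not pass without it, and 0 were lost. These were TNC (0.021) and SPARC, lower (0.025), with TGFb in FLASH and NPAT siRNA cells (adjusted p in brackets). Against non-transfected cells they were TNC (0.0074) and TGFBI, lower (0.038), after SLBP siRNA, and TNC (0.01) after NPAT siRNA with TGFb. POSTN after NPAT siRNA and FBN2 after NPAT siRNA with TGFb were also among them, of which nothing is read. The other 7 lay between siRNAs, among them FN1 (0.004) and FBN1 (0.018), lower after NPAT than SLBP siRNA. With the block 4 members passed for FLASH minus SLBP in the response to TGFb, and over all genes 1785 to 8083 passed in the 16 direct comparisons, 1.35 to 2.45 times the number without it. Over all genes 729 to 5989 passed in these comparisons, 1490 to 6771 without a filter, 33 to 6762 in a fit of the compared groups alone and 240 to 5501 without 1 library. For differences of response 1 to 24 genes passed, 3 to 108 in DESeq2, 48 to 365 without a filter, 1 to 126 with the replicate block, 0 to 18 in a fit of the compared groups alone and 0 to 50 without 1 library. For SLBP siRNA minus non-transfected the share of passing genes with a larger response went from 50.0% to 66.7% with RLE or upper-quartile scaling and 74.2% in DESeq2. Depth limited FBN2, THBS2 and POSTN, with at most 3 counts per non-transfected group.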
